A study of Mus musculus with 2 samples.

Results

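Tnfsf11, Tnfrsf11b, Tnfrsf11a, Csf1, Il34 and Csf1r encode the ligands and receptors that drive the formation of osteoclasts, the cells that resorb bone. They were followed by symbol as 6 of the 28006 features of a single-cell RNA sequencing data set. The genes were chosen from their levels between cell classes in these same libraries, so differences between classes are given below as a description, with no test. Femurs of 2 mice aged 28 postnatal days supplied the sorted cells, each animal having had tamoxifen at day 21, and 1 library was made per mouse. Both mice carried Cxcl12(GFP/+), which places GFP at the Cxcl12 locus, together with Cxcl12-iCreER and the R26R(tdTomato/+) reporter. They were of a mixed background and formed 1 group, and neither wild-type animals nor animals without tamoxifen were part of it. Cxcl12-iCreER is a transgene made from a large genomic clone around Cxcl12. With tamoxifen, tdTomato is meant to mark cells in which that promoter was active at the injection, and their descendants. The paper reported occasional tdTomato+ cells without tamoxifen in this line, mostly in the fraction with blood or endothelial surface markers. One label names tdTomato+ cells as the sorted population and others name GFP+ cells. The libraries were read as GFP+ sorts, and all comparisons were made between classes of cells within these 2 animals.

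TNFSF11, or RANKL, is a membrane-bound and shed cytokine that binds its receptor RANK, the product of Tnfrsf11a, on myeloid precursors and turns on the osteoclast program. Osteoprotegerin, the product of Tnfrsf11b, is a secreted decoy receptor that captures RANKL. CSF1 and IL34 are both ligands of the receptor encoded by Csf1r, which precursors need to survive and multiply. In marrow, reticular stromal cells lie around sinusoids and support blood cells, whereas pre-osteoblasts and osteoblasts line bone.

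The genes lie apart in the GRCm38 genome, the build of the deposited counts, and each is annotated as protein-coding. Tnfsf11 spans chr14:78277445-78308043 and Csf1 spans chr3:107741048-107760469, both on the minus strand. Il34 lies at chr8:110741829-110805924 and Tnfrsf11b at chr15:54250619-54278484, also on the minus strand, and Tnfrsf11a at chr1:105780718-105847981 on the plus strand. Promoter sequences from RefSeq (GRCm38.p6), which run from 250 bases before to 50 bases after the gene start, were used for 3 of the genes. No entry was found for Il34 and Tnfrsf11b. Those of Tnfsf11 (chr14:78307994-78308293, minus strand) and Csf1 (chr3:107760420-107760719, minus strand) are shown because both genes were high in reticular-like cells. They were searched on both strands for the TATA box letters TATAA, the CCAAT box, the Runx motif TGTGGT, the Ebf motif CCCNNGGG, the AP-1 motif TGANTCA, the C/EBP motif TTGCNNAA, the CRE motif TGACGTCA and the NF-kB consensus, and capitals mark the matches:
Tnfsf11: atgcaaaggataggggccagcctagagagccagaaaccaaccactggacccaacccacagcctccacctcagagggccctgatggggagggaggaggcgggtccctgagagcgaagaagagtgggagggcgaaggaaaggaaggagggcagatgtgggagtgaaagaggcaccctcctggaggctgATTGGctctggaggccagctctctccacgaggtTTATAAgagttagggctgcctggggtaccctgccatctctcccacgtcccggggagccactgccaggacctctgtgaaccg
Csf1: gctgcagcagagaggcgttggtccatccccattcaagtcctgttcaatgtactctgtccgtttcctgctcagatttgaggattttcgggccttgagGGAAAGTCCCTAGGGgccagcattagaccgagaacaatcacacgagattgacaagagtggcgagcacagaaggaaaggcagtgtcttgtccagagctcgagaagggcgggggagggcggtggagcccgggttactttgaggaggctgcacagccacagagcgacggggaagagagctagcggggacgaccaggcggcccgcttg
The Tnfsf11 promoter held TATAA 30 bases before the gene start, overlapping a match on the opposite strand, and CCAAT on the opposite strand 64 bases before it. Of all 32851 promoters, 24.9% held TATAA and 37.4% held CCAAT. The Csf1 promoter held CCCNNGGG, 147 bases before the start, which overlaps a match to the NF-kB consensus on the opposite strand. These were found in 13.7% and 8.46% of all promoters. The other motifs were not matched in either window (TGTGGT 16.8%, TTGCNNAA 10.8%, TGANTCA 7.81% and TGACGTCA 1.79% of all promoters), and the Tnfrsf11a promoter (chr1:105780473-105780772, plus strand) matched none of the 8. No motif was thus shared by the Tnfsf11 and Csf1 windows.

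After filtering, 2750 cells of Mouse #1 and 4582 of Mouse #2 remained, with median depths of 12966.5 and 12190 UMIs per cell. UMIs are random tags by which copies of the same captured transcript are counted once. The libraries shared 7 cell barcodes. Clusters were named from marker genes, with the 6 genes and a further list of pathway genes left out of the genes used for clustering. Reticular-like cells (1308 and 2559 cells in 4 clusters) raised all 8 reticular markers in each cluster, and preosteoblast-like cells (417 and 799) raised 7 of 8. Osteoblast-like (14 and 62), periosteal-like (79 and 235), endothelial-like (152 and 138) and myeloid-like cells (364 and 328, made up of granulocyte-, monocyte- and macrophage-like clusters) completed the 6 classes. A cluster of 65 and 81 cells raised 7 of 8 preosteoblast markers but stayed unnamed and lay outside these classes. Blood cells of all kinds made up 26.0% and 15.5% of cells in the sorted libraries. The values of the osteoblast-like class in Mouse #1 rest on 14 cells. Levels are given as CPM, the UMIs of a gene summed over a class in each mouse and scaled to the same total, and intervals are exact 95% Poisson intervals that cover counting error only. Where no UMI was found, the level that 3 counts would give is stated as the upper value, which is below the limit of the exact interval. The levels describe 3′-end counts and were compared between classes within a gene, not between genes.

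Tnfsf11 was most abundant in reticular-like cells. Its level there was 513 CPM in Mouse #1 (interval 503 to 524) and 741 CPM in Mouse #2 (731 to 751), which averaged 627 ± 161 (SD, n = 2). Periosteal-like cells held 192 and 326 CPM (259 ± 94.6) and preosteoblast-like cells 210 and 178 CPM (194 ± 22.2). Reticular-like cells were above both classes in each mouse, whereas periosteal-like and preosteoblast-like cells changed places between the mice. The ratio of reticular-like to preosteoblast-like cells was 2.45 in Mouse #1 and 4.16 in Mouse #2, or 1.67 ± 0.54 (SD, n = 2) on the log2 scale. Osteoblast-like cells were at the low end. No UMI of Tnfsf11 was found in the 14 cells of Mouse #1, which allows a level of up to 5.74 CPM, and 24 UMIs in the 62 cells of Mouse #2 gave 8.62 CPM. Of all Tnfsf11 UMIs in cells, 78.2% in Mouse #1 and 83.1% in Mouse #2 lay in reticular-like cells, which made up 47.6% and 55.8% of cells.

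**Figure D1:**
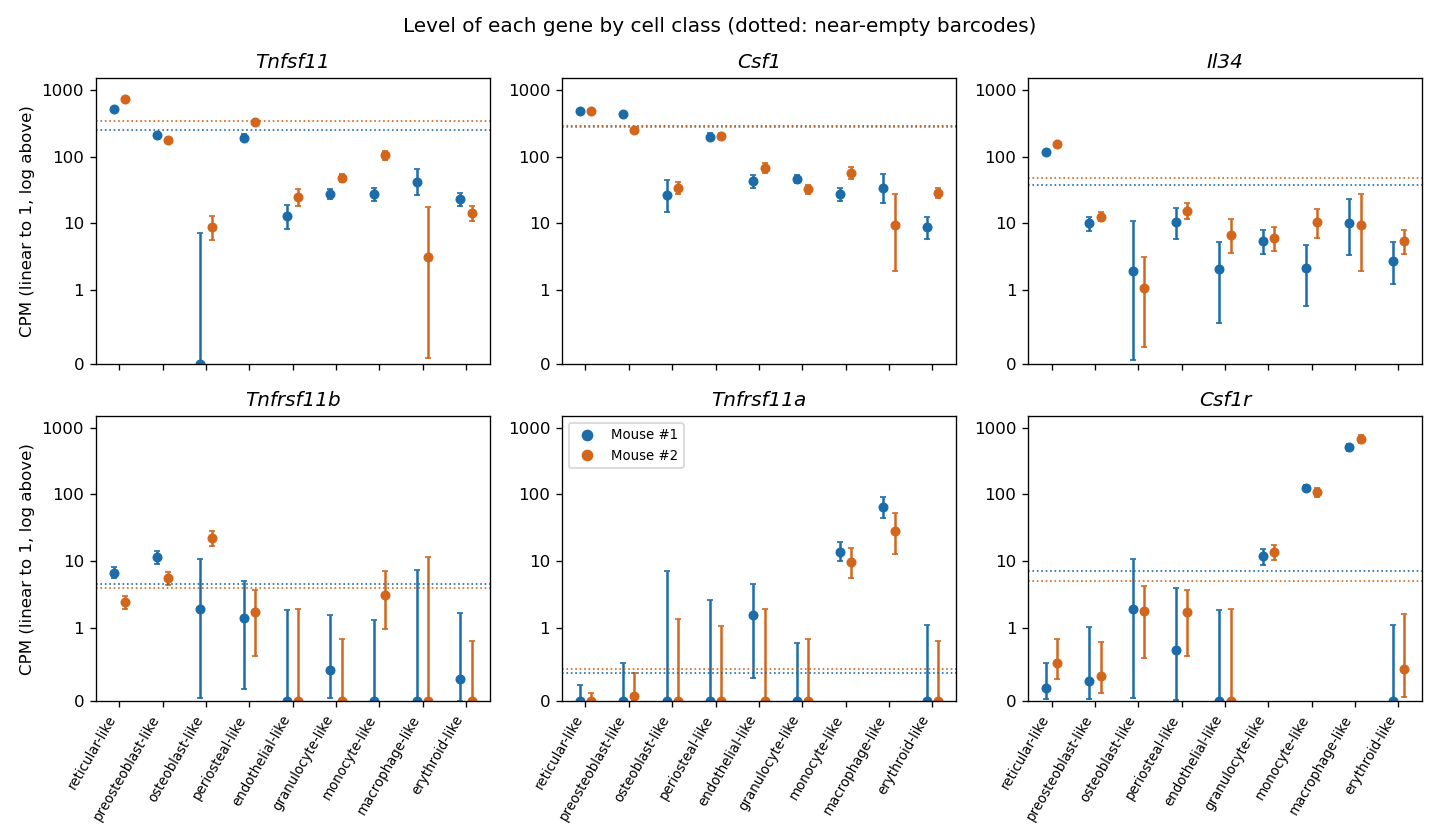
CPM of the 6 genes (vertical axis, linear to 1 and logarithmic above) by cell class, 1 point per mouse with exact 95% Poisson intervals; dotted lines give the level in barcodes of 1 to 100 UMIs. The ligands Tnfsf11, Csf1 and Il34 were highest in reticular-like cells, and the receptor genes Tnfrsf11a and Csf1r in macrophage-like cells.

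Free RNA bears on the low values. Barcodes of 1 to 100 UMIs, taken as near-empty, carried Tnfsf11 at 252 and 340 CPM, Csf1 at 293 and 275 CPM and Il34 at 37.1 and 47.5 CPM. Erythroid-like cells, which should lack all 6 genes, nevertheless had 22.9 and 13.999 CPM of Tnfsf11, and 1 cell held 52 of the 76 UMIs in Mouse #1. Endothelial-like cells had 12.6 and 24.7 CPM, below the erythroid-like level in Mouse #1 and above it in Mouse #2. Myeloid-like cells had 28.4 and 60.4 CPM of Tnfsf11, and the highest single cell among them held 46 UMIs in Mouse #1 and 59 in Mouse #2. Their summed reticular markers were 1884 and 2363 CPM, against 17297 and 14936 CPM in reticular-like cells. The part of free RNA and doublets in these low levels was not tested.

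Csf1, which supports survival of macrophages and osteoclast precursors, had a broader stromal range. Reticular-like cells had 493 CPM in Mouse #1 (483 to 504) and 489 CPM in Mouse #2 (481 to 497), which averaged 491 ± 2.93 (SD, n = 2). Preosteoblast-like cells had 441 and 248 CPM (344 ± 137). The order was the same in both mice, but the ratio was 1.12 in Mouse #1 and 1.97 in Mouse #2, or 0.57 ± 0.58 on the log2 scale, so the mean difference did not exceed the spread between the mice. Periosteal-like cells followed with 199 and 208 CPM (203 ± 6.37). The endothelial-like sums gave 43.0 and 68.3 CPM, and those of osteoblast-like cells 26.8 and 33.8 CPM. Erythroid-like cells had 8.73 and 28.2 CPM, and the Mouse #2 interval (23.5 to 33.6) overlapped that of osteoblast-like cells, while those of Mouse #1 did not overlap.

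Among the ligands, Il34 had the highest ratio of reticular-like to preosteoblast-like, periosteal-like and myeloid-like cells in both mice. Over endothelial-like cells of Mouse #2 the ratio was 22.8 for Il34 and 30.1 for Tnfsf11. The Il34 level in reticular-like cells was 119 CPM in Mouse #1 (114 to 124) and 152 CPM in Mouse #2 (148 to 157), which averaged 136 ± 23.6 (SD, n = 2). Preosteoblast-like cells had 9.91 and 12.6 CPM, and periosteal-like cells 10.4 and 15.5 CPM. These neighbours overlapped within their intervals in each mouse. Reticular-like cells were 12.01-fold and 12.13-fold above preosteoblast-like cells and 11.4-fold and 9.86-fold above periosteal-like cells. Lower still were erythroid-like cells at 2.71 and 5.33 CPM, with endothelial-like cells at 2.02 and 6.68 CPM. In all, 92.1% and 92.9% of the Il34 UMIs in cells came from reticular-like cells.

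Detection in single cells was compared after each cell had been thinned to 2000 UMIs at random, which lost 6 and 21 shallower cells. Of the reticular-like cells, 47.7% showed Tnfsf11 in Mouse #1 and 58.1% in Mouse #2, with 95% Wilson intervals of 45.0 to 50.5% and 56.2 to 60.02%, against 26.1% and 23.7% of preosteoblast-like cells. Before thinning these shares were 82.6% and 86.0% of reticular-like cells and 64.7% and 66.5% of preosteoblast-like cells, whose median depths were 12078.5 and 11209 against 15457 and 16229 UMIs. Erythroid-like cells, at medians of 23737 and 25365.5 UMIs, showed Tnfsf11 in 1.80% and 1.49% after thinning. Csf1 reached 57.4% and 56.7% of the reticular-like class, 55.2% and 37.8% of preosteoblast-like cells and 1.80% and 7.46% of erythroid-like cells. Il34 reached 20.7% and 22.8% of the reticular-like class, 2.64% and 2.51% of preosteoblast-like cells and 0 of 111 and 0 of 134 erythroid-like cells. The shares thus gave the same order of reticular-like over preosteoblast-like cells as the CPM values, with overlapping intervals for Csf1 in Mouse #1 (54.7 to 60.1% against 50.4 to 59.9%).

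**Figure D2:**
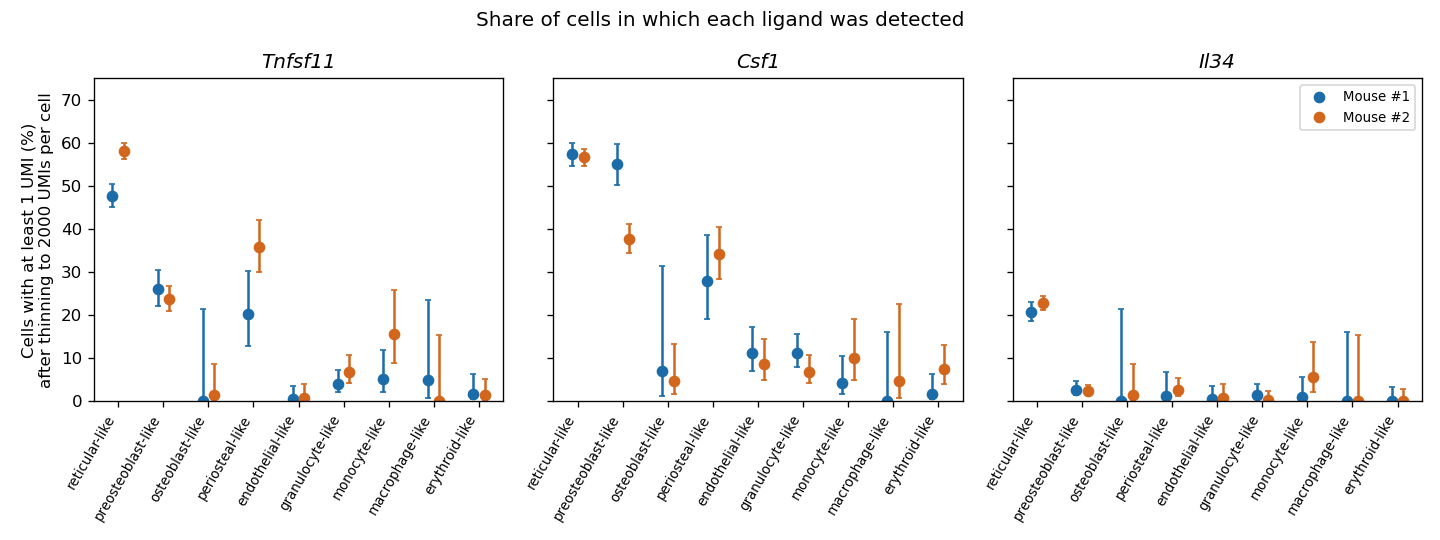
Percentage of cells with at least 1 UMI of Tnfsf11, Csf1 and Il34 after thinning to 2000 UMIs per cell (vertical axis) by class, 1 point per mouse with 95% Wilson intervals. Tnfsf11 reached 58.1% of reticular-like cells in Mouse #2 and Il34 22.8%, while erythroid-like cells stayed at 1.80% or less for both genes.

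The ligands were detected together in part of the reticular-like cells. Among reticular-like cells at 2000 UMIs, Il34 was found in 18.3% of Tnfsf11-positive and 22.9% of Tnfsf11-negative cells in Mouse #1, and in 21.03% and 25.2% in Mouse #2. The Wilson intervals were 15.5 to 21.6% and 19.9 to 26.2% in Mouse #1. In Mouse #2 they were 19.0 to 23.2% and 22.7 to 27.9%. The intervals overlapped in each mouse, which does not show that the shares are equal. The Il34 share was lower in Tnfsf11-positive cells of both mice, and this difference was not tested. Csf1 was found in 57.4% of Tnfsf11-positive and 57.4% of Tnfsf11-negative cells in Mouse #1, and in 56.9% and 56.4% in Mouse #2. The intervals of these Csf1 shares overlapped in each mouse. All 3 ligands were seen together in 5.07% and 6.92% of reticular-like cells, and none of them in 17.3% and 13.9%. In preosteoblast-like cells all 3 were seen in 0.480% and 0.126%.

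Within the reticular-like class Tnfsf11 varied between clusters and the other ligands varied less. Cluster 0, with 58.5% and 53.1% of the reticular-like cells, held 594 CPM of Tnfsf11 in Mouse #1 and 950 CPM in Mouse #2. Cluster 2, led by Fam13a, Kcne4 and Cyr61, with the stress response genes Hspb1, Hspa1a and Jun further down its 10 leading genes, held 469 and 533 CPM. Cluster 3, in which Bmp4 was among the leading genes, held 281 and 292 CPM, so cluster 0 was 2.12-fold and 3.26-fold above it. Cluster 13 (44 and 44 cells), led by Cxcl9, with a median of 3566.5 UMIs, held 125 and 212 CPM. The order of the first 3 clusters was the same in both mice, and their Poisson intervals did not overlap. Tnfsf11 was itself the leading gene of cluster 0 although it was not used for clustering.

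Between clusters 0 and 3, Csf1 and Il34 ran the other way by a small margin. Csf1 was 486 and 453 CPM in cluster 0 and 537 and 551 CPM in cluster 3, a mean log2 difference between cluster 0 and cluster 3 of -0.21 ± 0.098 (SD, n = 2). Il34 was 116 and 140 CPM in cluster 0, 132 and 174 CPM in cluster 2 and 124 and 165 CPM in cluster 3. In cluster 13, however, Csf1 was lower than in the other 3 clusters, at 167 and 234 CPM, as Tnfsf11 was, while Il34 was 88.5 and 195 CPM from 17 and 35 UMIs. The mean Il34 log2 difference between cluster 0 and cluster 3 was -0.17 ± 0.098. Ccl2, a chemokine gene, had 630 and 1303 CPM in cluster 0, 492 and 1146 CPM in cluster 2 and 55.3 and 164 CPM in cluster 3. Fos, an immediate early gene that tissue dissociation can raise, had 2519 and 935 CPM in cluster 0, 4250 and 3429 CPM in cluster 2 and 766 and 652 CPM in cluster 3. The part of dissociation in the levels was not tested.

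**Figure D3:**
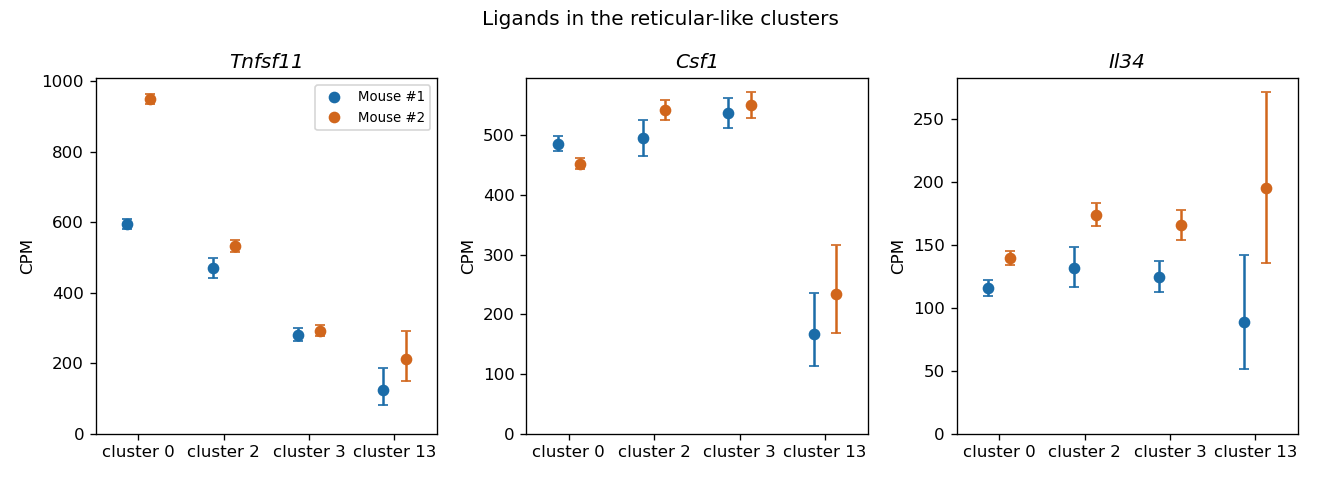
CPM of Tnfsf11, Csf1 and Il34 (vertical axes from 0) in the 4 reticular-like clusters, 1 point per mouse with exact 95% Poisson intervals. Tnfsf11 falls from 594 and 950 CPM in cluster 0 to 281 and 292 CPM in cluster 3, while Csf1 is slightly higher in cluster 3.

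Finer clustering (resolution 1.0) gave 5 reticular-like clusters. In the one highest in Tnfsf11 (347 cells with 177 CPM and 1036 cells with 255 CPM of Fos) Tnfsf11 was 779 and 979 CPM. In one high in Fos (402 cells with 4617 CPM and 281 cells with 3396 CPM of Fos) it was 442 and 832 CPM. Csf1 was nearly level between them at 477 and 450 CPM against 490 and 459 CPM. Another cluster high in Fos (3867 and 3284 CPM) had 466 and 559 CPM of Tnfsf11. The cluster with 786 and 700 CPM of Fos had 271 and 287 CPM of Tnfsf11. The one with 109 and 33.4 CPM of Fos had 118 and 212 CPM of Tnfsf11. A link between the levels of Tnfsf11 and Fos was not tested. The whole class held 1.44 times as much Tnfsf11 in Mouse #2 as in Mouse #1. With the clusters of Mouse #2 weighted as in Mouse #1, this ratio was 1.49. Csf1 had a ratio of 0.992 between the mice and Il34 of 1.28.

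Tnfrsf11b, the decoy receptor for RANKL, was rare in every class. Reticular-like cells had 6.65 and 2.41 CPM (111 and 74 UMIs), preosteoblast-like cells 11.5 and 5.48 CPM (81 and 79 UMIs) and periosteal-like cells 1.39 and 1.69 CPM. Preosteoblast-like cells were above reticular-like cells in each mouse, and the log2 ratio of reticular-like to preosteoblast-like cells was -0.99 ± 0.28 (SD, n = 2). In osteoblast-like cells there was 1 UMI in the 14 cells of Mouse #1 and 62 UMIs, or 22.3 CPM, in the 62 cells of Mouse #2. The osteoblast-like level thus rested on 1 mouse, where 21 cells had a UMI and the 5 highest held 56.5% of the UMIs. No UMI was found in endothelial-like cells, which allows up to 1.52 and 1.54 CPM. Near-empty barcodes held 4.47 and 3.98 CPM, close to the level in reticular-like cells, whereas erythroid-like cells held 0.301 CPM and none.

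The receptor genes were found where the ligands were low. Csf1r, the receptor for both CSF1 and IL34, stood at 509 CPM (448 to 576) and 676 CPM (589 to 771) in macrophage-like cells, 21 cells in each mouse. Monocyte-like cells had 125 and 107 CPM and granulocyte-like cells 11.7 and 13.5 CPM. This order held in both mice, with macrophage-like cells 4.09-fold and 6.29-fold above monocyte-like cells. Within the granulocyte-like class most UMIs lay in cluster 5, with Retnlg and Cxcr2, genes of mature neutrophils, among its leading genes, at 33.9 and 26.0 CPM. Cluster 11, with Elane and Mpo, genes of early granulocyte stages, among its leading genes, had no UMI in 88 cells of Mouse #1, which allows up to 0.9754 CPM, and 2.95 CPM in Mouse #2. Of the Csf1r UMIs in cells, 98.9% and 92.8% were in myeloid-like cells. Reticular-like and preosteoblast-like cells held between 0.180 and 0.521 CPM, below the near-empty barcodes at 7.18 and 5.09 CPM.

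Tnfrsf11a, which encodes RANK, followed the same order of macrophage-like over monocyte-like cells, with few UMIs. Macrophage-like cells had 64.4 CPM (44.0 to 90.9) in Mouse #1 and 27.9 CPM (12.8 to 52.9) in Mouse #2, from 32 and 9 UMIs. Monocyte-like cells had 13.9 and 9.70 CPM, from 39 and 16 UMIs. The intervals of the 2 classes overlapped in Mouse #2 and not in Mouse #1. Of the monocyte-like UMIs, 1 cell held 16 in Mouse #1 and 1 cell held 9 in Mouse #2. No UMI was found in granulocyte-like cells (up to 0.638 and 0.686 CPM) or in reticular-like cells (up to 0.180 and 0.0976 CPM). Outside myeloid-like cells, 3 UMIs lay in endothelial-like cells of Mouse #1 and 1 in its lymphoid-like cells, and in Mouse #2 there was 1 in preosteoblast-like and 1 in dendritic-like cells.

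Markers of osteoclasts, the cells on which these ligands act, were read in the same classes. Of 10 markers, 5 reached 10 CPM in a class of both mice (Ctsk, Acp5, Mmp9, Nfatc1 and Itgb3). Calcr, the calcitonin receptor that marks mature osteoclasts, was at 0 in all 6 classes of both mice, and Atp6v0d2, Dcstamp, Ocstamp and Oscar stayed under 10 CPM in at least 1 mouse of each class. Ctsk, a collagen-degrading protease, was at 202 and 205 CPM in the reticular-like class against 435 and 361 CPM in periosteal-like cells, so it was not particular to myeloid-like cells, which held 178 and 34.0 CPM. Acp5, a phosphatase of osteoclasts and macrophages, had 194 and 38.3 CPM in myeloid-like cells and 1.499 and 1.17 CPM in reticular-like cells. Mmp9, a gelatinase also stored by neutrophils, had 460 and 501 CPM in myeloid-like cells and 202 and 171 CPM in preosteoblast-like cells. Nfatc1, a transcription factor of the osteoclast program, was at 32.1 and 21.7 CPM in myeloid-like cells and reached 99.3 and 66.9 CPM in periosteal-like cells, with 77.9 and 81.2 CPM in the endothelial-like class. Itgb3, an integrin of osteoclasts and platelets, was at 43.9 and 14.1 CPM in preosteoblast-like and 11.9 and 7.09 CPM in myeloid-like cells. In the monocyte-like cells of Mouse #1, Acp5 was 477 CPM, Ctsk 485 CPM and Atp6v0d2, a proton pump subunit, 42.7 CPM, against 71.6, 92.8 and 3.03 CPM in Mouse #2. Macrophage-like cells had 318 and 359 CPM of Acp5 but 8.05 and 12.4 CPM of Ctsk. Their Atp6v0d2 was 48.3 CPM in Mouse #1, with no UMI in Mouse #2 (up to 9.30 CPM). The monocyte-like cluster raised 7 of 8 monocyte markers, and osteoclast was its second class with 3 markers raised.

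The tdTomato reporter allowed a test that the choice of genes did not use. Reticular-like cells were called tdTomato-positive if their tdTomato share of UMIs passed that of 99% of blood cells in their own library. The cutoffs were 7.72 per 10000 UMIs in Mouse #1 and 14.6 in Mouse #2, so positive cells passed a different level in each mouse. Blood cells, the reference here, can carry tdTomato without tamoxifen in this line, and the part of this in the cutoffs was not tested. This gave 512 positive and 796 negative cells in Mouse #1 and 986 and 1573 in Mouse #2. The Tnfsf11 level in Mouse #1 was 528 CPM for positive against 503 CPM for negative cells, and 800 and 702 CPM in Mouse #2. Csf1 was 483 and 500 CPM in Mouse #1 and 481 and 494 CPM in Mouse #2. Il34 was 123 and 116 CPM in Mouse #1 and 149 and 155 CPM in Mouse #2. Tnfsf11 and Il34 differed more between the mice than between the groups, and Csf1 was slightly lower in positive cells of both mice.

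In edgeR's quasi-likelihood test on the sums per mouse and tdTomato status, 0 of the 4 genes past the expression filter were called, and 0 of 12216 genes overall (0.0%), with 542 genes at an unadjusted p under 0.05. Log2 fold changes of positive over negative cells were 0.17 ± 0.24 (SE) for Tnfsf11, 0.036 ± 0.16 for Il34 and -0.013 ± 0.074 for Csf1, with Benjamini-Hochberg adjusted p-values of 0.958, 0.998 and 0.999. With the mouse as a block, 626 genes were called (5.12%), and Tnfsf11 had a log2 fold change of 0.16 ± 0.053 (edgeR adjusted p = 0.063). Tnfrsf11a and Csf1r were below the filter, with 0 UMIs of Tnfrsf11a and between 1 and 12 UMIs of Csf1r per sum.

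The call of Tnfrsf11b depended on the block and on the filter. Positive cells had 2.24 CPM against 9.61 CPM for negative cells in Mouse #1 (15 and 96 UMIs), and 1.64 and 2.91 CPM in Mouse #2 (20 and 54 UMIs). Negative cells were higher in both mice, but positive cells of Mouse #1 and negative cells of Mouse #2 lay close together. The log2 fold change was -1.63 ± 0.64 (edgeR, adjusted p = 0.92) without the block and -1.46 ± 0.29 (adjusted p = 5.7e-04) with it, and -1.62 (adjusted p = 0.0135) without the filter on low counts. A negative cell of Mouse #1 held 16 UMIs, and without the 5 highest cells of each sum the negative cells had 5.50 and 2.27 CPM and the positive cells 1.495 and 0.820 CPM. Within cluster 0 the per-mouse log2 ratios were -2.39 and -0.91 (7 against 54 and 12 against 29 UMIs in positive and negative cells). Cluster 3 gave -1.52 and -1.62 (5 against 29 and 3 against 20 UMIs), and cluster 2 gave -1.86 and 0.86 (3 against 11 and 5 against 5 UMIs). The Poisson intervals of positive and negative cells overlapped except in cluster 0 of Mouse #1, so no difference between clusters is read. Of the 8 preosteoblast markers, 7 were higher in negative cells of both mice, with sums of 2476 and 3633 CPM against 2360 and 3396 CPM in positive cells. So were 19 of 54 blood-cell markers, with sums of 3219 and 4595 against 1664 and 1560 CPM. Of the osteoblast markers 5 of 8 were higher, with nearly level sums of 153 and 208 against 159 and 206 CPM. Of the reticular markers 0 of 8 were higher, with sums of 16742 and 14472 against 18127 and 15642 CPM. The share over all genes is not given, and the part of these cell types in the Tnfrsf11b result was not tested.

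**Figure D4:**
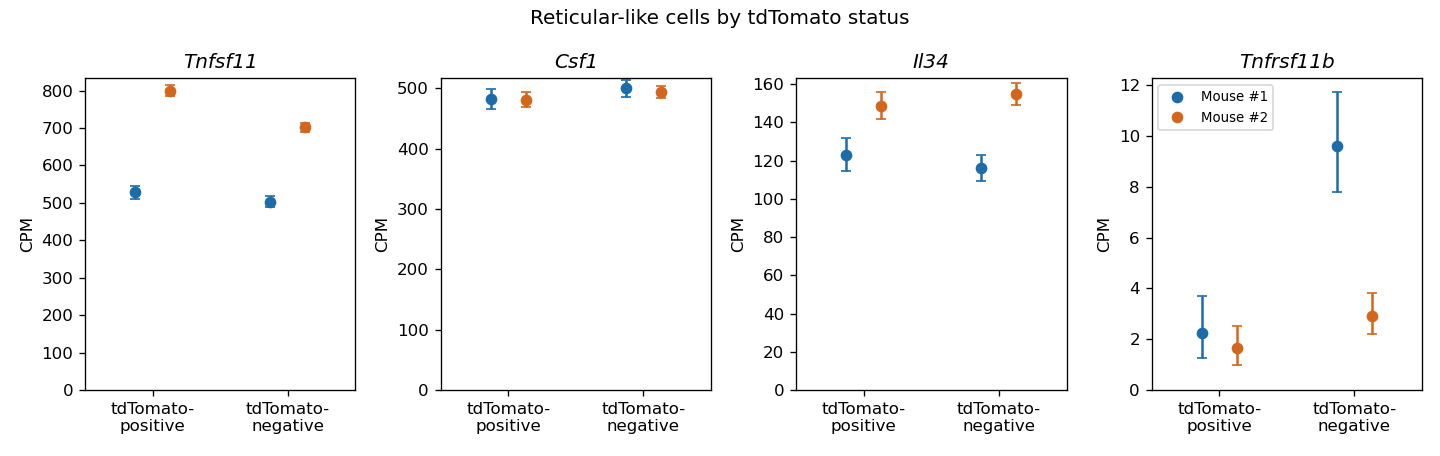
CPM of 4 genes (vertical axes from 0) in tdTomato-positive and tdTomato-negative reticular-like cells, 1 point per mouse with exact 95% Poisson intervals. Csf1 lies between 481 and 500 CPM in all 4 sums, and Tnfrsf11b is lower in positive cells of both mice.

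A list of 26 further genes of the pathway placed the ligands in context. It held hormone and cytokine receptors that act on Tnfsf11, secreted factors that act on osteoclast formation, proteases that shed the Tnfsf11 or Csf1 protein, and other receptors of the Tnfsf11 and Il34 proteins. Of the 25 genes that passed the expression filter, reticular-like cells exceeded preosteoblast-like cells in 8 and fell below them in 6 (edgeR, adjusted p under 0.05). Among 11818 genes outside the clustering genes, 9.7% were called higher and 10.3% lower. The median log2 fold change of the list was 0.035 against -0.028 over those genes. Those genes lack the 2000 most variable ones, while list genes were kept however variable. Their shares are thus not a like-for-like background, and no enrichment of the list is read from them. Wnt16, a bone-protective Wnt ligand, did not pass the filter and had 0.899 and 1.33 CPM in reticular-like cells. The classes were themselves drawn from these cells, so the p-values concern classes already set apart. Their estimate of spread between the 2 mice was shared over all 6 classes, with no term for mouse.

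Secreted factors led the genes higher in reticular-like cells. Ccl2, a chemokine for monocytes, had 497 and 1083 CPM in the reticular-like class against 25.8 and 79.0 CPM in preosteoblast-like cells, a log2 fold change of 3.94 ± 0.72 (SE, edgeR adjusted p = 0.00302). Cx3cl1, another chemokine, had 85.9 and 94.5 CPM against 16.8 and 13.7 CPM (2.62 ± 0.28). Il6, a cytokine that acts on osteoclast formation through stromal cells, had 20.9 and 16.3 CPM against 7.78 and 3.19 CPM (1.91 ± 0.56, adjusted p = 0.034), a call that was lost under DESeq2 (adjusted p = 0.0693). For these genes the levels of the 2 classes did not overlap across the mice. Of the 10 receptors acting on Tnfsf11, 5 were higher (Il1r1, Osmr, Il11ra1, Tnfrsf1a and Il6st) and 1 was lower. With the mouse as a block, Sdc1 (0.80, adjusted p = 0.0302) and Lif (0.78, adjusted p = 0.0161) were called higher as well.

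Genes lower in reticular-like cells lay in each role. Ptprz1, a receptor of IL34, had 10.6 and 8.62 CPM in the reticular-like class against 46.0 and 55.2 CPM in preosteoblast-like cells, a log2 fold change of -2.37 ± 0.31 (adjusted p = 4.7e-04). Pth1r, the receptor for parathyroid hormone, had 137 and 115 CPM against 476 and 500 CPM (-1.91 ± 0.33, adjusted p = 0.00227). Sema3a, a semaphorin known to restrain osteoclasts, had 7.79 and 6.44 CPM against 28.0 and 26.0 CPM (-1.89 ± 0.28). Wnt5a, Tgfb1 and the sheddase gene Adam10 were lower as well, at -1.80, -1.23 and -0.37. With the mouse as a block, Mmp14 (-0.82, adjusted p = 0.0177) and Vdr (-1.28, adjusted p = 0.0221) were also called lower.

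**Figure D5:**
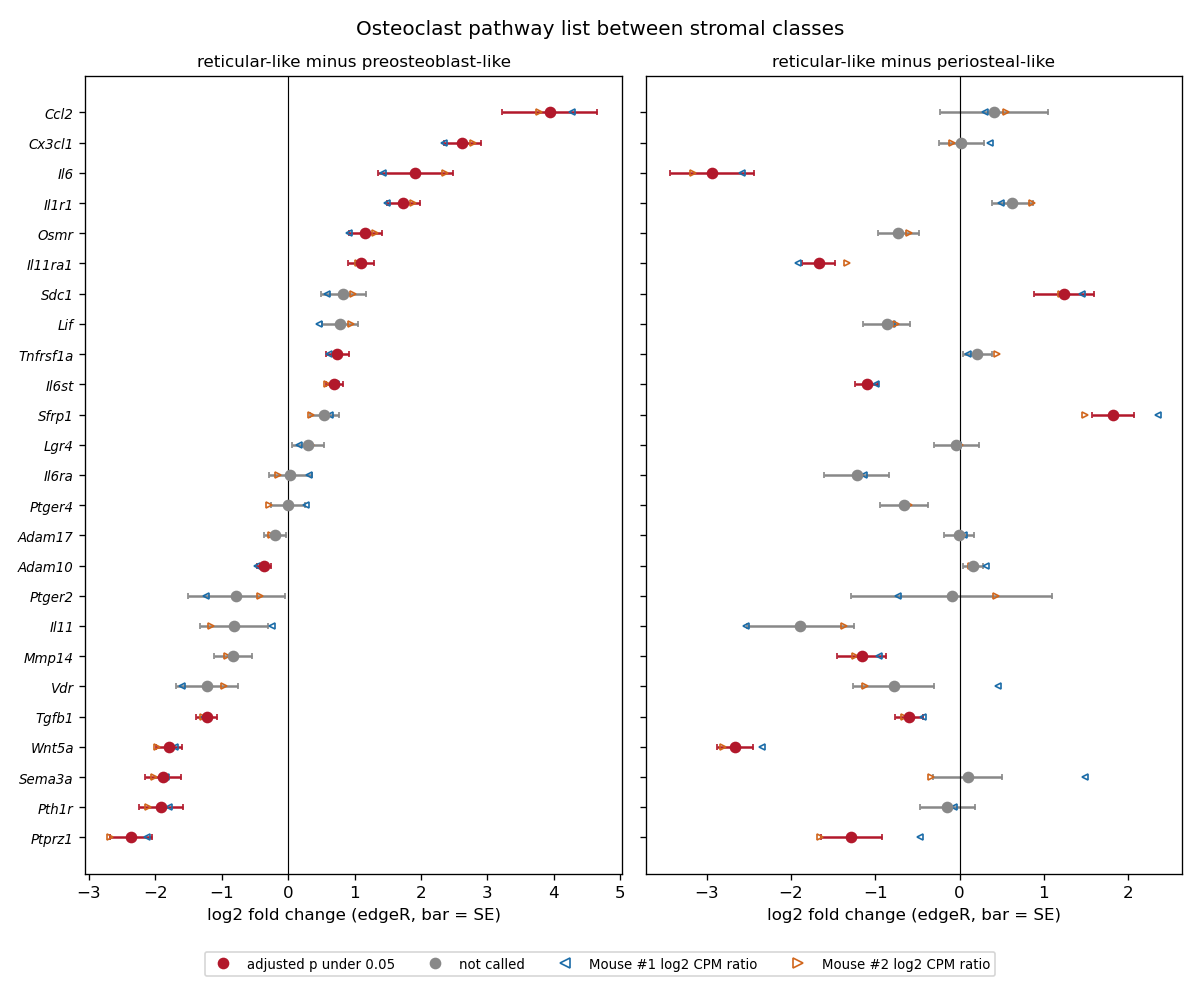
Log2 fold change of 25 pathway genes (horizontal axes) in reticular-like minus preosteoblast-like cells (left) and minus periosteal-like cells (right); circles with SE bars are the edgeR estimates, red where the adjusted p is under 0.05, and triangles are the log2 CPM ratios of each mouse. Against preosteoblast-like cells 8 genes were higher and 6 lower, and against periosteal-like cells 2 were higher and 7 lower.

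Against periosteal-like cells, the other fibroblastic class, more list genes were lower than higher. Here 2 genes were higher and 7 lower in reticular-like cells, beside 8.05% and 8.95% of 11818 genes outside the clustering genes. The median log2 fold change was -0.60 against 0.038. Again that background leaves out the most variable genes and the list does not, so no enrichment is read from it. Sfrp1, a secreted Wnt inhibitor, had 230 and 179 CPM in the reticular-like class against 45.2 and 63.8 CPM in periosteal-like cells (1.82 ± 0.24, adjusted p = 4.9e-04). Sdc1, a proteoglycan that binds IL34, had 272 and 339 CPM against 99.3 and 148 CPM (1.24 ± 0.36, adjusted p = 0.0342), a call that was lost under DESeq2 (adjusted p = 0.0801). Il6 was lower here, with 125 and 146 CPM in periosteal-like cells (-2.93 ± 0.50, adjusted p = 0.00223). Wnt5a, a Wnt ligand that acts on osteoclast precursors, had 10.1 and 9.24 CPM against 51.4 and 64.9 CPM (-2.66 ± 0.21), and Il11ra1, the receptor for interleukin 11, 20.02 and 19.6 CPM against 75.7 and 49.2 CPM (-1.67 ± 0.19). Lif, which is also a cytokine of the interleukin 6 family, was called lower only with the mouse as a block (-0.84, adjusted p = 0.0189). These contrasts share the reticular-like sums, so they are not independent.

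Patterns over the 6 classes were matched to other genes by Pearson correlation of log2(CPM + 1) over the 12 sums of class and mouse, among 10955 genes that reached 10 CPM in a sum. The sums share 2 libraries and the class structure, so the coefficients describe likeness and have no test. Tnfsf11 was most like Angpt1 (0.991), Cyp1b1 (0.983) and 1500009L16Rik (0.978). Angpt1, an endothelial growth factor gene, had 249 and 232 CPM in the reticular-like class, 78.5 and 59.7 CPM in preosteoblast-like and 93.8 and 87.7 CPM in periosteal-like cells. Csf1 was most like Negr1 (0.988), Ahcyl1 (0.987) and Tln2 (0.986). Il34 was most like Ephx2 (0.968), Gabbr2 (0.961) and Klf15 (0.952), of which Ephx2, a lipid epoxide hydrolase gene, had 27.2 and 19.4 CPM in the reticular-like class against 3.54 and 4.02 CPM in preosteoblast-like cells. Different genes were thus nearest to each ligand.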

How the data were processed

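The authors deposited unfiltered UMI counts (10x 3′ v3 chemistry) that cover all 6794880 barcodes per library (54940400 and 88790688 UMIs), per the file headers made with Cell Ranger 3.0.0 on mm10 with added reporter sequences. A barcode was kept as a cell from 1000 detected genes upward if mitochondrial UMIs were 15% or less, the limits used by the study. The 2000 most variable genes, without the 42 genes of the fixed lists and reporters, gave 30 principal components and a graph of 15 neighbors, clustered with leidenalg 0.10.2 (scanpy 1.11.5, Python 3.11.15) at resolution 0.5 into 18 clusters. A cluster took the name of the class with the largest share of its markers raised 1.5-fold with detection in at least 10% of cells. Clusters that failed further rules stayed unnamed, here a cluster of 65 and 81 cells whose leading genes held as many markers of another class. Its mean levels were 163 ± 42.9 CPM of Tnfsf11, 268 ± 53.8 CPM of Csf1 and 9.29 ± 10.5 CPM of Il34 (SD, n = 2). Names were rebuilt here and can differ from the study. Doublets were kept: Scrublet marked 2 and 3 cells, so its threshold had not worked, and removal of the 60 and 168 highest scores was an alternative.

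Sums per mouse and class were tested with edgeR 4.0.16 in R 4.3.3 (TMM, filterByExpr, Benjamini-Hochberg over all tested genes, 6 classes in 1 fit). A check on simulated counts drew each sum independently, without a mouse effect, so it could not test the pairing of sums by mouse. Depth sets the precision, and the floor for a level of 0 is 3 counts. The main fits had no block for mouse. The mouse pairs the sums, since both sums of a pair come from 1 animal. Across genes, deviations of the same mouse correlated at 0.234 (preosteoblast-like), 0.248 (periosteal-like) and 0.685 (tdTomato).

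The genes, lists and tests were chosen with earlier results of these data known. Named from the pathway list are the 3 called genes with the largest change in each direction, genes below the filter, osteoclast markers with 10 CPM or more in a class of both mice, and for each ligand the 3 genes of most similar pattern. The other genes and the splits by cluster were chosen after their values were seen. Values by cluster within the tdTomato contrast and the composition weighting were added after seeing the data.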

Additional observations from a re-analysis of the deposited data

How the results depend on the processing

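With the replicate block, 18 of the 25 list genes were called against preosteoblast-like cells and 10 against periosteal-like cells, in place of 14 and 9. Without a filter on low counts, 15 of 26 list genes were called against periosteal-like cells (3 higher, 12 lower). Shares over all genes under these settings are not given for the class contrasts, so these counts are not read as results about the list. Under DESeq2 1.42.0, Il6 against preosteoblast-like cells (1.84, adjusted p = 0.0693) and Sdc1 against periosteal-like cells (1.20, adjusted p = 0.0801) lost their calls. For tdTomato status, 1 member, Tnfrsf11b, was called with the replicate block (-1.46) and 1 without the filter (-1.62), and none with DESeq2 or with tdTomato UMIs after thinning; over all genes 626, 77, 11 and 1 genes were called, against 0. Tnfsf11, Csf1 and Il34 were called in none of these fits. The log2 ratio of Il34 in reticular-like over preosteoblast-like cells, 3.59, became 3.4999 with 2000 genes and 10% mitochondrial UMIs, 3.53 at resolution 1.0, 3.41 as a mean over cells and 3.85 without doublets, and Csf1r in myeloid-like cells, 76.9 CPM, became 99.03 CPM as a mean over cells. The ratios of Tnfsf11, Csf1 and Tnfrsf11b kept their sign under these 4 settings and in each mouse alone. Leaving out a mouse leaves the tests no residual degrees of freedom, so only per-mouse values are given. Few cells (osteoblast-like in Mouse #1, macrophage-like) and few UMIs (Tnfrsf11b, Tnfrsf11a) limit precision.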
